A study of Bos taurus with 6 samples.

Results

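The complement components and regulators described here are 8 genes, taken from the authors' gene table by their symbols. They are the proteases C1R and C1S, the central component C3, factor B (CFB), the soluble regulators SERPING1 and factor I (CFI), and the membrane regulators CD55 and CD59. All 8 had a row among the 17663 genes of the table, and 7 were among the 13482 genes whose counts were high enough to be tested. CFI was the member that was not tested.

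RNA was measured in bovine fetal fibroblasts (bEFs), which are connective tissue cells. They were grown from fetuses of 50 to 60 days, from tissue that excluded bone, organs, limbs and head. FT cells came from 3 fetuses carrying the exogenous fat-1 transgene of Caenorhabditis elegans, whose product turns n-6 into n-3 polyunsaturated fatty acids. WT cells were from 3 Luxi cattle fetuses without the transgene (wild-type), and the cells of both groups were cultured in the same medium with fetal bovine serum. Libraries of poly(A) RNA were made from bulk cultures, 1 for each fetus (n = 3 per group), and are named FT_1, FT_2, FT_3, WT_1, WT_2 and WT_3. The promoter of the transgene and the breed of the FT fetuses are not given in the sources used here.

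Complement is a cascade of plasma proteases that marks cells and microbes for removal. In the classical pathway C1R activates C1S, which cleaves C4 and C2, and in the alternative pathway factor B joins a fragment of C3 to form the enzyme that cleaves more C3. Most circulating complement is made in the liver, but fibroblasts also make C1R, C1S, C3, factor B and SERPING1, and host cells hold the cascade back with soluble inhibitors and with surface proteins such as CD46, CD55 and CD59.

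Total counts were 63366834 (FT_1), 48167642 (FT_2) and 54204446 (FT_3) in FT cells against 69777641 (WT_1), 51310741 (WT_2) and 54271927 (WT_3) in WT cells. FT_1 stood apart from the other FT libraries. Beyond counting noise, the typical spread of a gene between a pair of libraries (biological coefficient of variation) was 56.9% between FT_1 and FT_2 and 57.6% between FT_1 and FT_3, against 8.23% between FT_2 and FT_3 and 9.99 to 13.4% between pairs of WT libraries. Of the genes tested, 22.3% differed by more than 2-fold between FT_1 and FT_2, and 4.87% did so between FT_2 and FT_3. Tests of the members are therefore given with FT_1 and without it.

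The fibroblast label was checked against 12 markers. All 12 had counts, and VIM was the most abundant by mean FPKM, fragments adjusted for the gene's length and the library's size. Their summed FPKM was 9321 (FT_1), 22010 (FT_2) and 21373 (FT_3) in FT cells against 23043 (WT_1), 22453 (WT_2) and 22878 (WT_3) in WT cells. The sum in FT_1 was thus the lowest of the 6, and the sums of the other 5 libraries lay close together, although single markers did not. VIM measured 3850 FPKM in FT_2, 4171 in FT_3 and 7312 to 8178 in WT libraries, and LUM 2759, 2559 and 1117 to 1224. Of the 12, 1 was called higher and 0 lower with all libraries, beside 20.1% and 18.9% of all genes, and 6 higher and 2 lower without FT_1, beside 30.6% and 31.5%, by the test and threshold given in the next paragraph. COL1A1 stood at 914 FPKM in FT_1 and at 2212 to 2689 FPKM in the other libraries, whereas PDGFRA, the 1 called higher with all libraries, was, like THY1, highest in FT_1, at 218 FPKM, with 166 in FT_2, 141 in FT_3 and 87.0 to 99.7 in WT libraries.

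In FT cells, C3, C1R and SERPING1 were higher and CD59 was lower than in WT cells. C3 was the member with the largest difference, with 10.5 to 413 FPKM in FT and 1.16 to 1.70 FPKM in WT libraries, and its FT_1 value was far above those of FT_2 and FT_3. With all 6 libraries, 3 of the 7 tested members were called higher in FT cells by edgeR's quasi-likelihood test at a Benjamini-Hochberg adjusted p under 0.05, where 20.1% of all genes tested were. In the lower direction 1 of the 7 was called, beside 18.9% of all genes. Without FT_1 these counts became 4 higher and 2 lower, beside 30.6% and 31.5% of 13765 genes.

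The threshold of the study's methods, p under 0.05 without adjustment together with a log2 fold change beyond 1 in either direction, called 4 of the 7 members higher and 1 lower with all 6 libraries. The same rule called 10.2% of all genes higher and 8.96% lower. Without FT_1 it called 3 members higher, beside 11.0% of all genes, and 1 lower, beside 12.2%. By FPKM alone, all FT libraries lay above all WT libraries for 4 of the 7 tested members, as for 21.8% of all genes, and all FT libraries lay below for 2 members, as for 36.9% of all genes. The smallest two-sided p of an exact permutation test with 3 libraries a group is 0.10, and each of these 6 members reached it.

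Among the 7 tested members the median log2 fold change (FT over WT) was 1.46, against 0.03 over all genes tested. Without FT_1 it was 0.91, against -0.02 over all genes. Levels below are the deposited FPKM values, which carry no scaling for RNA composition, whereas the fold changes come from counts scaled by the trimmed mean of M-values (TMM). Scaling by library totals alone moved the median of all genes to -0.12 and the share of higher genes among all calls from 51.6% to 37.6%. In these bulk libraries, fewer cells of a type and less RNA per cell cannot be told apart.

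**Figure D1:**
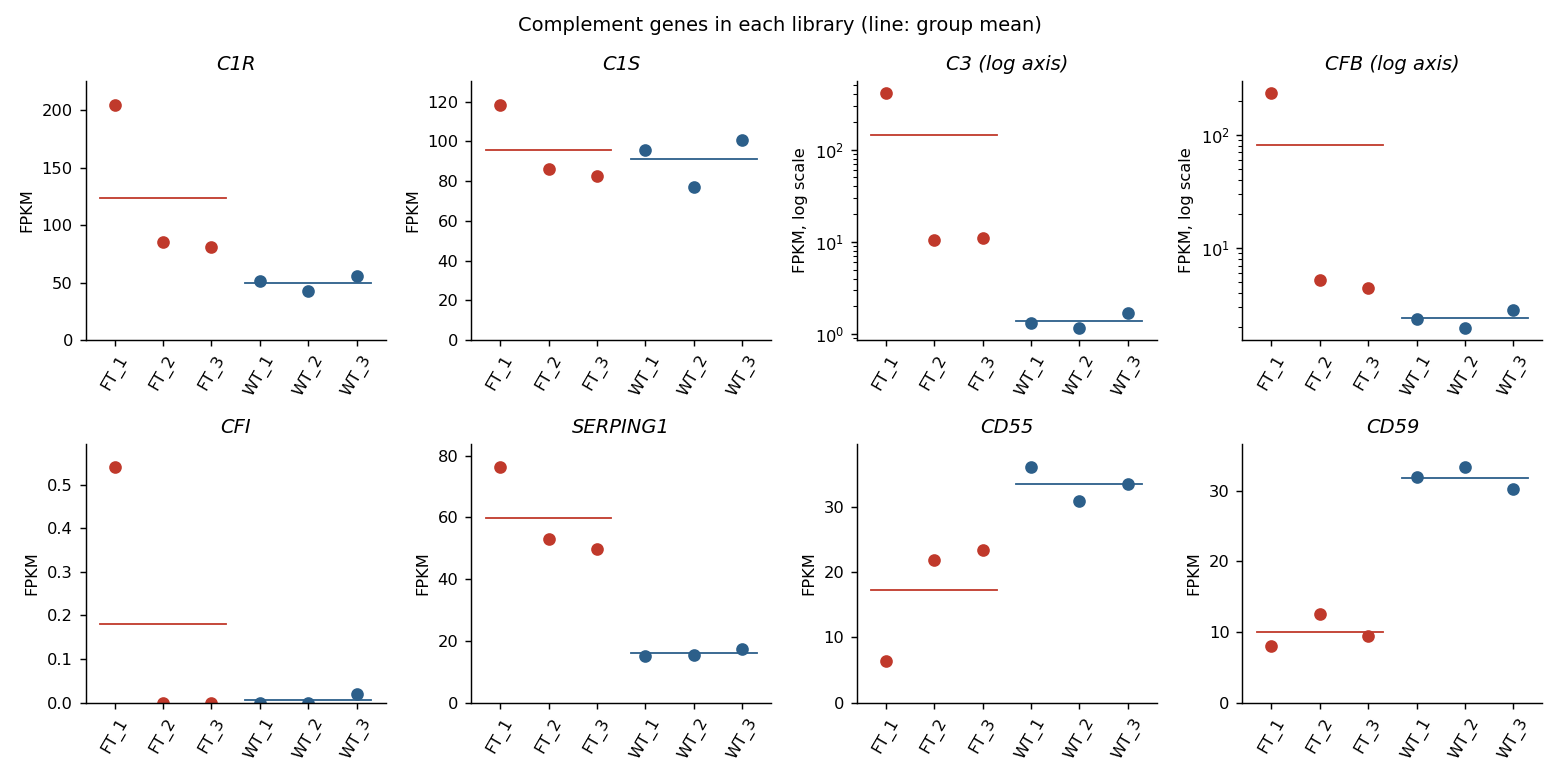
FPKM of the 8 complement genes in each of the 6 libraries (red, FT; blue, WT), with a line at each group mean; the C3 and CFB panels have a log axis and the others start at 0. FT_1 reaches 413 FPKM for C3 and 235 FPKM for CFB, and the FT points of CD55 and CD59 lie below all WT points.

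C1R and C1S encode the proteases of the C1 complex. They are neighbours on chromosome 5 of the authors' table, on opposite strands and 20270 bp apart, with C1R (ENSBTAG00000008612) at 103358822 to 103387417 and C1S (ENSBTAG00000004840) at 103407687 to 103419088. The cattle build behind these positions is not given in the sources used here.

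C1R measured 205 FPKM (FT_1), 85.5 (FT_2) and 81.2 (FT_3) in FT cells against 51.2 (WT_1), 42.9 (WT_2) and 55.8 (WT_3) in WT cells. All FT libraries were above all WT libraries, and FT_1 was the highest. The log2 fold change of C1R was 1.46 with an SE of 0.38 and an adjusted p of 0.0269 in edgeR, or 2.75-fold with a 95% interval of 1.45 to 5.23. Without FT_1 it was 0.91 with an SE of 0.10 and an adjusted p of 3.54e-05 in edgeR. Leaving out WT_1, WT_2 or WT_3 ended the call, with adjusted p-values of 0.0922, 0.105 and 0.0776 in edgeR.

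C1S measured 119 FPKM (FT_1), 86.2 (FT_2) and 82.5 (FT_3) in FT cells against 95.4 (WT_1), 76.9 (WT_2) and 101 (WT_3) in WT cells. The groups overlapped. Its log2 fold change was 0.23 with a 95% interval of -0.19 to 0.65 and an adjusted p of 0.330 in edgeR. Without FT_1 it was 0.06, with an interval of -0.17 to 0.29 and an adjusted p of 0.638 in edgeR. On unscaled FPKM the mean of FT_2 and FT_3 was 0.927 times the WT mean, so that the sign of this small difference depended on the scaling.

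The ratio of C1R to C1S within a library does not depend on scaling between libraries. It was 1.73 (FT_1), 0.992 (FT_2) and 0.985 (FT_3) in FT cells against 0.537 (WT_1), 0.557 (WT_2) and 0.555 (WT_3) in WT cells. C1S was thus the more abundant by FPKM in all WT libraries, whereas the pair stood nearly level in FT_2 and FT_3 and C1R led in FT_1. The ratio did not overlap between groups, with an exact permutation p of 0.10, the smallest possible.

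An unnamed copy close to C1R, annotated as C1r subcomponent-like (ENSBTAG00000037743), lay 31646 bp away on the same strand. It had 233 counts in FT_1, 47 in FT_2 and 0 in the other 4 libraries. C1R had 34562 counts in FT_1 and 10932 in FT_2. How the authors counted reads shared by such copies is not given in the sources used here, so the value of the copy is uncertain.

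C3 is the component on which all activation routes converge. In the authors' table C3 (ENSBTAG00000017280) lies on chromosome 7 at 17773675 to 17810616. It measured 413 FPKM (FT_1), 10.5 (FT_2) and 10.9 (FT_3) in FT cells against 1.33 (WT_1), 1.16 (WT_2) and 1.70 (WT_3) in WT cells. FT_1 was far above FT_2 and FT_3, which lay close together and above all WT libraries.

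In counts, C3 went from 163049 in FT_1 to 3141 in FT_2 and 3670 in FT_3, against 369 to 573 in WT libraries, and it took 0.257% of all counts in FT_1. The log2 fold change of C3 was 6.83 with an SE of 1.79 and an adjusted p of 0.0275 in edgeR. As a fold this is 114, with a 95% interval of 5.49 to 2360. Without FT_1 the log2 fold change was 3.11 with an SE of 0.14 and an adjusted p of 1.50e-07 in edgeR, or 8.61-fold with an interval of 6.93 to 10.7.

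The call of C3 with all FT libraries was lost when a WT library was left out, with adjusted p-values of 0.105 without WT_1, 0.109 without WT_2 and 0.0977 without WT_3 in edgeR. FT_1 exceeded the mean of FT_2 and FT_3 by 38.7-fold in FPKM for C3. When the 13482 tested genes were ordered by the excess of FT_1 over FT_2 and FT_3, C3 ranked 117 and CFB ranked 98.

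CFB encodes the protease precursor of the alternative pathway. CFB (ENSBTAG00000046158) lies on chromosome 23 at 27415355 to 27421377, 433 bp from C2 on the same strand and 152 bp from NELFE on the other. It measured 235 FPKM (FT_1), 5.22 (FT_2) and 4.42 (FT_3) in FT cells against 2.39 (WT_1), 1.97 (WT_2) and 2.87 (WT_3) in WT cells. All FT libraries were above all WT libraries, with FT_3 the nearest to them.

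With FT_1, CFB did not pass the adjusted threshold, with a log2 fold change of 5.21, an SE of 1.74 and an adjusted p of 0.0585 in edgeR. Without FT_1 the log2 fold change was 1.16, the SE 0.16 and the adjusted p 1.81e-04 in edgeR. It also passed without FT_2, at an adjusted p of 0.0438, and without FT_3, at 0.0408, in edgeR. FT_1 exceeded the mean of FT_2 and FT_3 by 48.8-fold in FPKM. C2, the classical pathway counterpart of factor B and its neighbour, had no such excess in FT_1, with 8.84 FPKM (FT_1), 8.94 (FT_2) and 9.31 (FT_3) against 7.26 to 9.27 in WT libraries. C2 had a log2 fold change of 0.30 with an adjusted p of 0.0833, and 0.33 with an adjusted p of 0.0300 without FT_1, both in edgeR.

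CFB over C3 in FPKM was 0.569 (FT_1), 0.497 (FT_2) and 0.406 (FT_3) in FT cells against 1.80 (WT_1), 1.70 (WT_2) and 1.69 (WT_3) in WT cells. CFB exceeded C3 in all WT libraries and C3 exceeded CFB in all FT libraries. The FT ratios lay within a narrow range although the levels of both genes in FT_1 were far above those in FT_2 and FT_3. The exact permutation p was 0.10, the smallest possible.

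**Figure D2:**
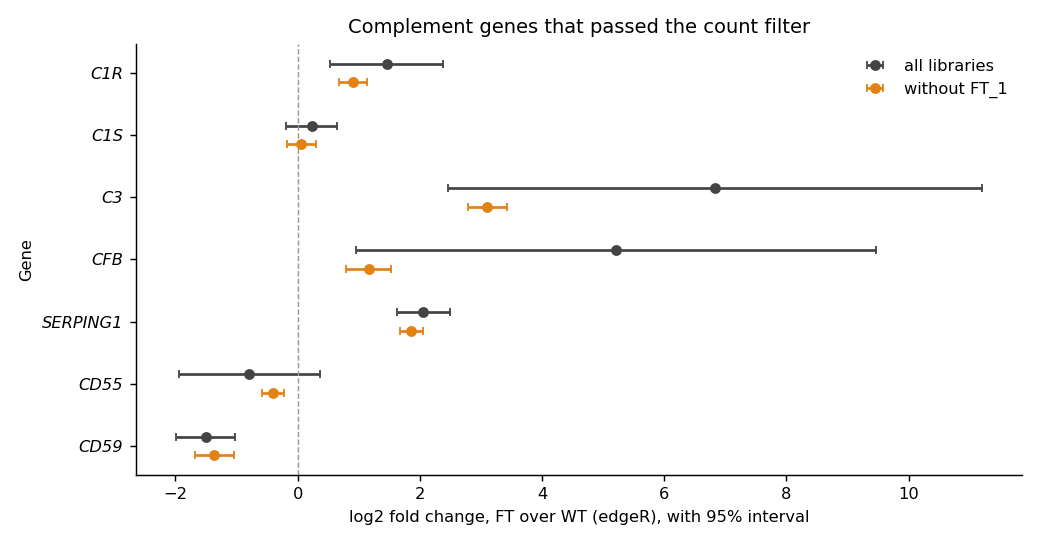
Log2 fold changes (FT over WT, edgeR) of the 7 tested complement genes with 95% intervals, for all 6 libraries (grey) and without FT_1 (orange). The intervals of C3 and CFB narrow and their centres move from 6.83 to 3.11 and from 5.21 to 1.16 without FT_1, whereas SERPING1 and CD59 change little.

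SERPING1 encodes the C1 inhibitor, which blocks C1R, C1S and the lectin pathway proteases. SERPING1 (ENSBTAG00000016267) lies on chromosome 15 at 80850690 to 80863385. It measured 76.2 FPKM (FT_1), 53.1 (FT_2) and 49.7 (FT_3) in FT cells against 14.98 (WT_1), 15.3 (WT_2) and 17.5 (WT_3) in WT cells. All FT libraries were well above all WT libraries, and FT_1 was closer to its group than for C3 or CFB.

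SERPING1 had the smallest adjusted p of the members with all libraries. Its log2 fold change was 2.06 with an SE of 0.18 and an adjusted p of 0.00102 in edgeR, or 4.17-fold with a 95% interval of 3.09 to 5.63. Without FT_1 it was 1.86 with an SE of 0.09 and an adjusted p of 1.70e-07 in edgeR. Leaving out any 1 of the 6 libraries kept the gene called higher, with log2 fold changes of 1.86 to 2.17.

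Relative to its target protease C1S, the inhibitor stood at 0.643 (FT_1), 0.617 (FT_2) and 0.603 (FT_3), and at 0.157 in WT_1, 0.199 in WT_2 and 0.174 in WT_3, as a ratio of FPKM. FT_1 lay close to FT_2 and FT_3 in this ratio, and all FT libraries were well above all WT libraries. Relative to C1R it stood at 0.372 (FT_1), 0.622 (FT_2) and 0.612 (FT_3), and at 0.292 to 0.358 in WT libraries. Neither ratio overlapped between groups, each with an exact permutation p of 0.10, and the FT_1 value of the second lay just above the WT range.

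**Figure D3:**
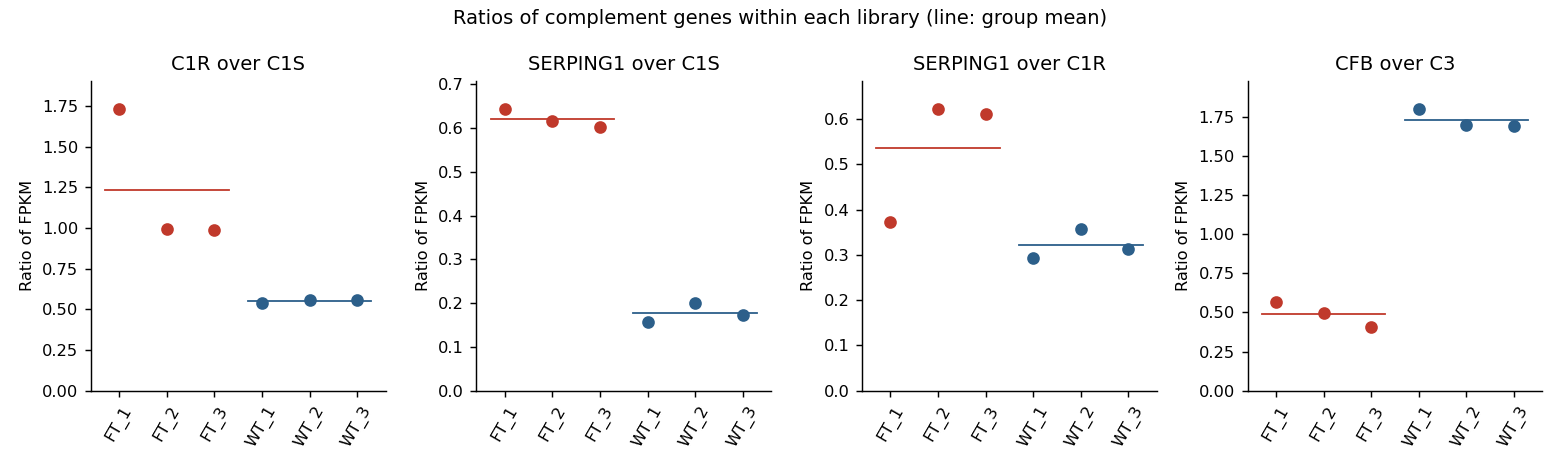
Ratios of FPKM within each library (red, FT; blue, WT) with lines at the group means; all axes start at 0. SERPING1 over C1S lies at 0.603 to 0.643 in FT and 0.157 to 0.199 in WT libraries, and the 4 ratios shown, chosen after their values were seen, do not overlap between the groups.

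CFI encodes factor I, the protease that degrades activated C3 and C4 with the help of cofactors. CFI (ENSBTAG00000034501) lies on chromosome 6 at 15613508 to 15664735. It had 109 counts in FT_1, 0 in FT_2 and FT_3, 0 in WT_1 and WT_2, and 4 in WT_3. Its level was 0.54 FPKM in FT_1 and 0.02 FPKM or less in the other libraries, so FT_1 was the 1 library with more than a few reads. Without the filter on low counts its log2 fold change was 4.58 with an adjusted p of 0.247 in edgeR, and no difference between the groups was detectable. Without FT_1 the FT libraries had no read of CFI. A count of 0 allows up to 0.0623 CPM in FT_2, where the limit is 3 counts, and such limits cover counting error only.

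CD55, or decay-accelerating factor, breaks up the C3-cleaving enzymes on the cell surface. CD55 (ENSBTAG00000006984) lies on chromosome 16 at 5250021 to 5279400. It measured 6.36 FPKM (FT_1), 21.9 (FT_2) and 23.3 (FT_3) in FT cells against 36.1 (WT_1), 30.9 (WT_2) and 33.5 (WT_3) in WT cells. All FT libraries were below all WT libraries, and FT_1 was the lowest by far, the reverse of its place for C3.

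With all libraries CD55 did not pass the threshold, with a log2 fold change of -0.79, a 95% interval of -1.95 to 0.36 and an adjusted p of 0.228 in edgeR. Without FT_1 it was called lower, at a log2 fold change of -0.40, an SE of 0.08 and an adjusted p of 0.00178 in edgeR. The mean of FT_2 and FT_3 was 0.675 times the WT mean in FPKM.

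CD59 stops the assembly of the membrane attack complex. CD59 (ENSBTAG00000002302) lies on chromosome 15 at 64346582 to 64368108. It measured 8.08 FPKM (FT_1), 12.6 (FT_2) and 9.44 (FT_3) in FT cells against 32.0 (WT_1), 33.4 (WT_2) and 30.2 (WT_3) in WT cells. The groups were far apart, and FT_1 lay near FT_3.

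Its counts were 242 to 287 in FT and 771 to 1049 in WT libraries. Its log2 fold change was -1.503 with an SE of 0.20 and an adjusted p of 0.00292 in edgeR. Without FT_1 it was -1.36 with an SE of 0.14 and an adjusted p of 2.62e-05 in edgeR. Leaving out any 1 library kept CD59 called lower, with log2 fold changes of -1.70 to -1.36. CD59 over CD55 overlapped between groups, at 0.404 to 1.27 in FT and 0.886 to 1.08 in WT libraries, with an exact permutation p of 0.40.

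CD46, the cofactor on the cell surface for factor I, did not pass the test. It measured 46.0 FPKM (FT_1), 57.7 (FT_2) and 59.0 (FT_3) and 60.4 to 68.7 in WT libraries, so that the groups did not overlap on unscaled FPKM. Its log2 fold change was -0.09 with an adjusted p of 0.612, and 0.02 with an adjusted p of 0.779 without FT_1, both in edgeR. The summed FPKM of CD46, CD55 and CD59 was 60.5 (FT_1), 92.3 (FT_2) and 91.8 (FT_3) in FT cells against 137 (WT_1), 129 (WT_2) and 124 (WT_3) in WT cells. The sum was lower in all FT libraries than in all WT libraries, with an exact permutation p of 0.10. On unscaled FPKM 36.9% of all genes lay below in the same way. CD46, the largest part of the sum, was not called with TMM scaling.

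The order of the members by FPKM also differed between groups. In WT libraries C1S led with a mean of 91.0 ± 12.5 (SD, n = 3), followed by C1R at 50.0 ± 6.57, CD55 at 33.5 ± 2.60, CD59 at 31.9 ± 1.56, SERPING1 at 15.9 ± 1.36, CFB at 2.41 ± 0.45 and C3 at 1.40 ± 0.28. CD55 and CD59 did not differ beyond their spread, and CFI was near 0. In FT_2 and FT_3 C1S and C1R were nearly level and SERPING1 ranked above CD55, with C3 and CD59 next to each other. In FT_1 C3 ranked first and CFB second, and CD55 ranked seventh.

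The summed FPKM of the 8 members was 1063 (FT_1), 275 (FT_2) and 262 (FT_3) in FT cells against 233 (WT_1), 202 (WT_2) and 242 (WT_3) in WT cells. C3 and CFB made up 61.0% of that sum in FT_1, 5.72% in FT_2, 5.85% in FT_3 and 1.55 to 1.89% in WT libraries. C1R and C1S made up 30.4% in FT_1 and 59.2 to 64.6% in the other 5 libraries. The shares are parts of 1 sum, and the FPKM of C1R and C1S themselves were highest in FT_1.

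The genes whose pattern over the 6 libraries was most like that of each tested member were found by the root mean square difference of centred log2 CPM (counts scaled to the library size). For C1R these were CREB3L2 (0.08), SLC22A17 (0.08) and MANSC1 (0.09), and for C1S KANK1 (0.05), SMG1 (0.06) and SLAMF9 (0.06). For SERPING1 they were HSPG2 (0.11), ADAP1 (0.11) and CDC42EP1 (0.13). HSPG2 measured 112 FPKM (FT_1), 79.2 (FT_2) and 86.6 (FT_3) against 21.1 to 28.0 in WT libraries.

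For C3 the nearest were ADM2 (0.29), AGRN (0.38) and SEMA5A (0.47), and for CFB they were SFRP2 (0.27), SHROOM3 (0.33) and P3H2 (0.34). SFRP2 measured 332 FPKM in FT_1 and 3.02 to 5 FPKM in the other libraries. C3 and CFB were each other's nearest member at 0.93, with CFB at rank 22 among the genes nearest to C3. For CD55 the nearest were RELL1 (0.07), FAM171B (0.07) and RIPK3 (0.09), and those for CD59 included DZIP3 (0.07) and MRPL27 (0.09). No member was among the 3 nearest genes of another.

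The rest of the pathway was read from a list of 49 other complement genes, which was shortened after the results were seen. Of these, 27 had a row with a count and 14 were tested. The remaining 22, among them the C1q chains, C5 and the receptors C3AR1 and C5AR1, had no row under their symbols among the 17663 genes. Their levels were thus not read. With all libraries 2 of the 14 were called higher and 3 lower in edgeR, beside 20.1% and 18.9% of all genes, and their median log2 fold change was -0.24. Without FT_1, 5 of 18 were called higher and 8 lower, beside 30.6% and 31.5% of all genes, and the median was -0.56. Setting genes without a count in FT cells at their detection limit left both medians as they were. Of the called genes, C6, and without FT_1 also CSMD3 and CFD, passed the filter on low counts through a single group. Their direction was thus fixed before any test.

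Both genes called higher with all libraries were lectin pathway proteases, which SERPING1 also inhibits. MASP1 measured 77.3 FPKM (FT_1), 225 (FT_2) and 207 (FT_3) in FT cells against 53.2 (WT_1), 45.8 (WT_2) and 54.6 (WT_3) in WT cells. By edgeR the log2 fold change was 1.90 with an adjusted p of 0.0147, and 2.25 with an adjusted p of 5.34e-08 without FT_1 (edgeR). The call was lost when a WT library was left out, with adjusted p-values of 0.0618 without WT_1, 0.0690 without WT_2 and 0.0575 without WT_3 in edgeR. FT_1 was the lowest FT library for MASP1, unlike C1R and C1S, for which it was the highest. MASP2 measured 2.90 to 3.91 FPKM in FT and 1.92 to 2.02 FPKM in WT libraries, with a log2 fold change of 0.94 and an adjusted p of 0.00499 in edgeR (0.84 and 2.93e-04 without FT_1).

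The 3 genes called lower with all libraries were C6, C5AR2 and CALR. C6, a part of the membrane attack complex, had 0 counts in all FT libraries and 127, 71 and 123 counts in WT_1, WT_2 and WT_3. In CPM by library totals, without TMM scaling, that is at least 100.7-fold lower, against a limit of 3 counts over the 3 FT libraries together rather than in each. The TMM factors were 0.934 to 0.968 in FT and 1.05 to 1.06 in WT libraries, so this bound is smaller on the TMM scale. C6 passed the filter on low counts through WT cells alone. Its direction was thus fixed before any test, and nothing is concluded from its call. C5AR2, a receptor for C5a, measured 0.19 to 0.25 FPKM in FT and 0.74 to 1.07 FPKM in WT libraries. CALR, an endoplasmic reticulum chaperone that also binds C1q, measured 405 to 549 FPKM in FT and 831 to 951 FPKM in WT libraries. All 3 were called lower without FT_1 too, but CALR lost its call without WT_1 (adjusted p 0.0660 in edgeR) and without WT_2 (0.0707).

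SUSD4, a complement regulator, had FT_1 above and FT_2 and FT_3 below the WT libraries, with 4.28 FPKM in FT_1, 0.20 in FT_2, 0.19 in FT_3 and 2 to 2.57 in WT libraries. CLU measured 304 FPKM in FT_1, 176 in FT_2, 168 in FT_3 and 285 to 292 in WT libraries, and C4A measured 8.69, 4.18 and 3.89 FPKM in FT_1, FT_2 and FT_3 and 6.93 to 10.1 in WT libraries. With all libraries SUSD4, CLU and C4A were not called in edgeR, with log2 fold changes of -0.43, -0.27 and -0.47 and adjusted p-values of 0.798, 0.398 and 0.303. Without FT_1 they were called lower in edgeR, with adjusted p-values of 1.07e-06, 2.11e-05 and 3.61e-04. So were C1QBP (log2 fold change -0.96, adjusted p 1.88e-05) and CSMD3 (adjusted p 0.0456). In the same fit CFD (4.30, adjusted p 0.00584) and CSMD2 (0.73, adjusted p 0.0320) were called higher, as was C2. CSMD3 and CFD were not tested with all libraries and rest on few reads. CSMD3 had 0 counts in FT libraries and 27, 14 and 0 in WT_1, WT_2 and WT_3. CFD had 4, 34 and 45 counts in FT_1, FT_2 and FT_3 and 0, 7 and 0 in WT_1, WT_2 and WT_3. Each passed the filter through a single group, so nothing is concluded from their calls. Reads of C4A may be shared with rows annotated as C4-like, so the value of C4A is uncertain. The row with more counts of these (ENSBTAG00000006864, chosen after its values were seen) measured 1.26 to 1.78 FPKM in FT and 5.48 to 6.33 FPKM in WT libraries, with a log2 fold change of -1.79 and an adjusted p of 8.86e-04 in edgeR (-1.90 and 1.19e-06 without FT_1).

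**Figure D4:**
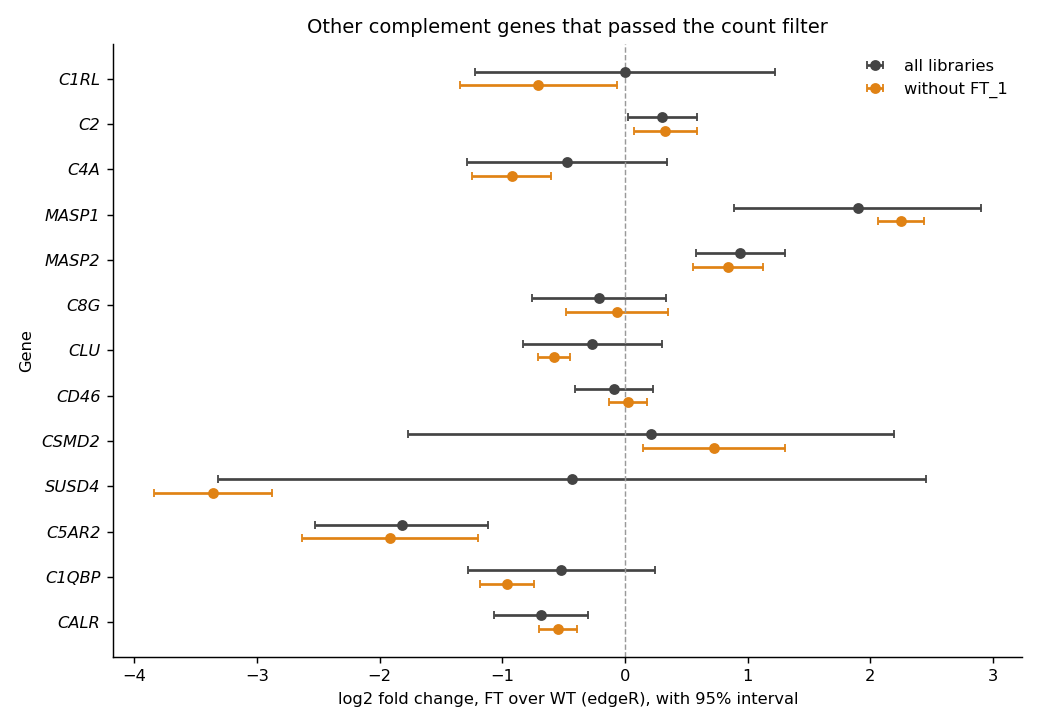
Log2 fold changes (FT over WT, edgeR) with 95% intervals of 13 other complement genes that were tested, for all 6 libraries (grey) and without FT_1 (orange); C6 is left out because it has no count in FT cells. MASP1 lies at 1.90 and 2.25, and SUSD4 moves from -0.43 to -3.35 without FT_1.

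Genes of cytokine signalling that is known to raise C3, CFB, C1S and SERPING1 were read from a list of 21, all tested. Of these 5 were called higher and 4 lower in edgeR, and without FT_1 7 were called higher and 11 lower. Over all genes the shares were 20.1% and 18.9%, and 30.6% and 31.5% without FT_1. The 6 with the smallest p were RELA, TNFRSF1A and TNFAIP3, which were higher, and IFNGR1, IFNGR2 and JAK2, which were lower. TNFAIP3, a target of NF-kB, measured 4.93 FPKM (FT_1), 2.33 (FT_2) and 2.36 (FT_3) and 0.92 to 1.09 in WT libraries. NFKBIA, another such target and chosen after its values were seen, was not called with all libraries and was called lower without FT_1 in edgeR (log2 fold change -0.57, adjusted p 0.00194), with 15.1 FPKM in FT_1, 3.50 in FT_2, 3.33 in FT_3 and 5.38 to 6.12 in WT libraries. IL6, chosen after its values were seen, also had FT_1 above and FT_2 and FT_3 below the WT libraries, with 28.7 FPKM in FT_1, 0.77 in FT_2, 0.35 in FT_3 and 5.86 to 10.6 in WT libraries. Its log2 fold change was 0.38 with an adjusted p of 0.858, and -3.72 with an adjusted p of 1.28e-05 without FT_1, both in edgeR.

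The 6 listed markers of epithelial cells, like C3 and CFB, were highest in FT_1. This excess was not particular to them. By it C3 ranked 117 and CFB 98 among the 13482 tested genes, and MSLN and SFRP2 were also highest in FT_1. All 6 markers of the list had a count in FT_1, and 5 were tested, of which 0 were called in edgeR with all libraries and 4 were called higher without FT_1, where 20.1% and 30.6% of all genes were called higher. These 4, KRT5, KRT8, KRT14 and KRT18, had no count in WT libraries and passed the filter on low counts through FT cells alone. Their direction was thus fixed before any test. Nothing is concluded from the counts of calls, at either threshold or in any of the fits that follow. At the study's threshold 4 of the 5 tested markers were called higher with all libraries in edgeR, beside 10.2% of all genes. By adjusted p, limma on log2(FPKM + 1) called 0 and limma with a pseudocount of 0.1 called 2. The edgeR fit with same-numbered libraries as blocks called 4 higher, and DESeq2 called 0 and gave no adjusted p for 4. Over all genes these 4 fits called 1837 of 12247, 1880 of 12247, 1838 of 13482 and 3238 of 17663 higher, with no adjusted p for 2455 in the last. Their summed FPKM was 432 (FT_1), 12.7 (FT_2) and 11.9 (FT_3) in FT cells against 10.0 (WT_1), 7.83 (WT_2) and 13.9 (WT_3) in WT cells, and KRT5 was the most abundant.

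KRT5 measured 172 FPKM (FT_1), 2.57 (FT_2) and 1.63 (FT_3), and KRT14 measured 128, 1.76 and 1.11. KRT5, KRT8, KRT14 and KRT18 were at 0 in all WT libraries, in which C3 measured 1.16 to 1.70 FPKM and CFB 1.97 to 2.87 FPKM. EPCAM was at 0.57 FPKM in FT_1 and at 0 in the other 5 libraries. In WT libraries the sum was CDH1 alone, at 7.83 to 13.9 FPKM. The part of epithelial cells in the levels of C3 and CFB was not tested.

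**Figure D5:**
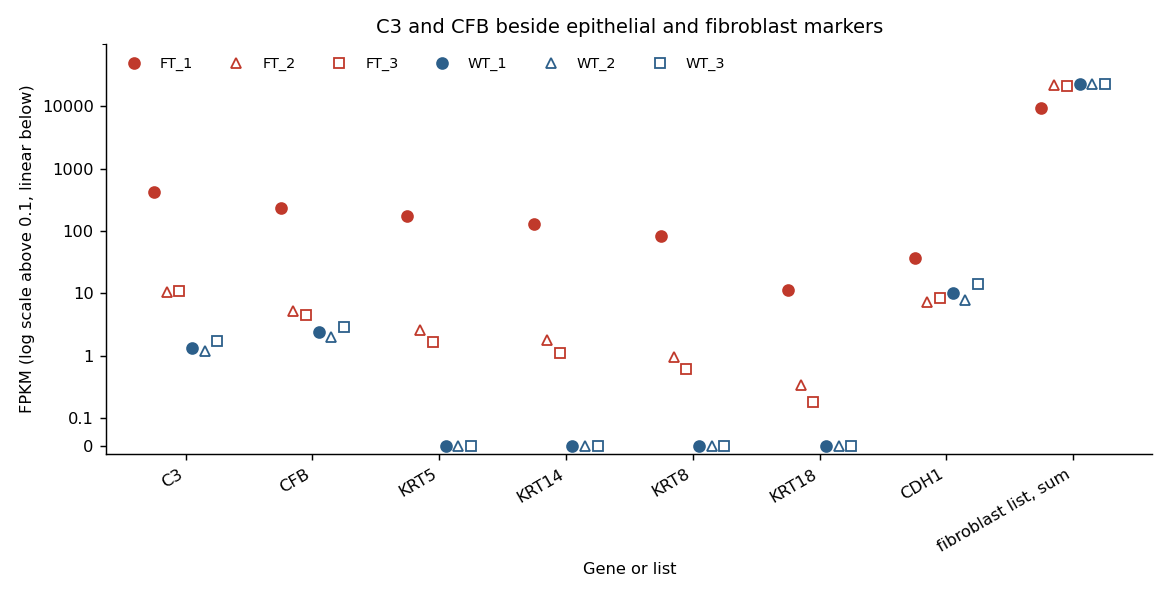
FPKM of C3 and CFB, of 5 epithelial markers and of the summed fibroblast list in each library (red, FT; blue, WT; filled symbols, library 1), on an axis that is logarithmic above 0.1 and linear below. FT_1 is the highest library for both complement genes and the 5 markers and the lowest for the fibroblast sum, and the 4 keratins are at 0 in WT libraries.

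The hepatocyte list summed to 8.26 FPKM in FT_1, 22.8 in FT_2, 20.3 in FT_3 and 116 to 138 in WT libraries, with TTR as the most abundant and ALB at 0 in all FT libraries and at 0.03 FPKM or less in WT libraries. The macrophage and leukocyte list summed to 3.55 to 4.50 FPKM in FT and 9.62 to 11.2 FPKM in WT libraries, led by CD14, with AIF1 at 0.19 FPKM or less. PTPRC and TYROBP had no row under their symbols, so their levels were not read. CD163 measured 0 to 0.18 FPKM in FT and 2.69 to 3.14 in WT libraries, and CD68 0.77 to 1.35 and 2.57 to 3.02. In edgeR 1 of 3 tested hepatocyte markers and 2 of 4 tested leukocyte markers were called lower with all libraries, beside 18.9% of all genes, and 2 and 3 without FT_1, beside 31.5%.

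Of the other lists, smooth muscle markers had 6 of 7 called higher in edgeR, beside 20.1% of all genes (7 without FT_1, beside 30.6%), with sums of 2499 FPKM in FT_1, 3768 in FT_2, 3631 in FT_3 and 1083 to 1208 in WT libraries, led by ACTA2. The mesothelial list summed to 206 FPKM in FT_1, 45.1 in FT_2, 46.3 in FT_3 and 2.35 to 3.48 in WT libraries, nearly all from MSLN, while WT1 was at 0 in FT cells. In edgeR 1 of its 2 tested genes was called higher, with and without FT_1, beside 20.1% and 30.6% of all genes. UPK3B, the other, measured 1.03 FPKM in FT_1, 0.10 in FT_2, 0.09 in FT_3 and 0.20 to 0.25 in WT libraries. KRT19, not tested and chosen after its values were seen, measured 6.26 FPKM in FT_1, 0.07 in FT_2, 0 in FT_3 and 0.03 or less in WT libraries. The adipocyte list summed to 3.54 FPKM in FT_1, 11.2 in FT_2, 12.3 in FT_3 and 134 to 148 in WT libraries, nearly all from FABP4 in WT cells. In edgeR 1 of its 5 tested genes was called higher and 2 lower, and 1 and 3 without FT_1, while the shares of all genes were 20.1% and 18.9%, and 30.6% and 31.5% without FT_1. The 1 called higher was LEP, at 0.03 FPKM in FT_1, 4.91 in FT_2, 4.45 in FT_3 and 0.02 to 0.09 in WT libraries. Endothelial, skeletal muscle and cartilage lists summed to at most 1.52, 2.05 and 2.29 FPKM in any library. The part of these cell types in the levels of the complement genes was not tested.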

How the data were processed

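RNA was sequenced from bEFs of 3 FT and 3 WT fetuses. The authors used HISAT for mapping (HISAT2 2.0 in the submitters' notes), Perl scripts to merge transcripts, and StringTie (1.3.0) with edgeR for expression. Their deposited FPKM values are scaled by gene length and library total. The gene counts deposited in the same table are raw. The submitters' notes also list Bowtie and the mouse build mm8, although the gene identifiers are those of cattle. The cattle build and the counting of shared reads are not given in the sources used here.

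Counts were tested in R 4.3.3 with edgeR 4.0.16 (TMM scaling, filterByExpr, quasi-likelihood test of FT against WT) and Benjamini-Hochberg adjustment over all genes tested. limma 3.58.1 and DESeq2 1.42.0 were alternatives. Ratios, chosen after the values were seen, were compared by exact two-sided permutation tests, with a smallest p of 0.10.

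Named genes are the 8 members, the listed complement genes with a count, at most 6 genes by smallest p of each other list, and the 3 genes nearest to each member in log2 TMM-scaled CPM (prior count 2). Withheld items, 1 of them taken off the complement list after the results were seen, are not reported here, and the counts and medians of that list, which are without it, differ slightly from those with it. Exceptions are the lists' most abundant and defining markers and genes said to be chosen after their values were seen. Members and lists were chosen with earlier results of these data known.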

Additional observations from a re-analysis of the deposited data

How the results depend on the processing

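SERPING1 and CD59 kept their direction and their call under all alternatives tried, and C1S kept its sign in all these fits without being called, though not in unscaled FPKM without FT_1. Of 54 fold changes of members under other scaling, filters, tools or the replicate block, 49 kept direction and side of the threshold and 5 lost the call, and of 42 with a library left out 32 did, 6 lost the call and 4 gained it. DESeq2 gave no adjusted p for C3, CFB and CFI, so these have no call under it, although CFI had a log2 fold change of 4.68.

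C1R lost its call in limma without a filter (log2 fold change 1.16, adjusted p 0.0661), and C3 lost it in limma on log2(FPKM + 1) with the filter (4.01, adjusted p 0.0603) and without it (4.01, adjusted p 0.0901). Over the alternatives that left out no library, the adjusted p ran from 2.89e-04 to 0.0661 for C1R and from 0.0275 to 0.0941 for C3. The replicate block, with different fetuses sharing a number, gave 1.33 for C1R (edgeR adjusted p 0.0503) and 4.48 for C3 (edgeR adjusted p 0.0941). Deviations of same-numbered libraries correlated at -0.001, -0.020 and 0.018 across genes. Other pairs of an FT and a WT library lay between -0.026 and 0.028. This check thus showed no pairing by number, but values this small cannot exclude one. Under the block 1 of 7 tested members and 1 other complement gene were called higher, and 1838 of 13482 genes, against 2714 without it. The block changed no other member's call. MASP1 was the other complement gene that lost its call under it (adjusted p 0.0508).

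Members called higher numbered 1 of 8 in limma without a filter, and 2 of 8 at the study's threshold in DESeq2. Over all genes, limma without a filter called 1744 of 17645 higher. At the study's threshold DESeq2 called 1528 of 17663 genes higher, against 1378 of 13482 in edgeR. By that threshold limma called 462 (pseudocount 1) and 749 (pseudocount 0.1) of 12247 genes higher, and 456 of 17645 without a filter. Of all limma calls on log2(FPKM + 1), 34.0% were higher, with a median log2 fold change of all genes of -0.12. The causes were not tested.

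With each library left out in turn, log2 fold changes ran from 0.91 to 1.68 for C1R, 3.11 to 7.38 for C3, 1.16 to 5.77 for CFB and -1.09 to -0.40 for CD55. Members called ran from 1 to 4 higher and 1 to 2 lower, and other complement genes from 1 to 5 higher and 2 to 8 lower. All genes ran from 1516 to 4215 higher and 1531 to 4337 lower. These fits tested 7 members and 13765 to 13849 genes. The low counts came without a WT library, that of members called lower also without FT_2 or FT_3. The high ones came without FT_1, that of members called higher also without FT_2 or FT_3.

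Signs turned for some genes that were not called with all libraries. C1RL had log2 fold changes of -0.14 with library totals, -0.00845 without a filter, -0.16 under the replicate block and, in limma, -0.12 (pseudocount 1, with or without a filter) and -0.28 (pseudocount 0.1). CSMD2 had -0.00351 in limma without a filter and -0.19 under the block. Leaving out 1 library gave -0.71 to 0.26 for C1RL, -0.17 to 0.0243 for CD46, -0.27 to 0.73 for CSMD2 and -3.35 to 0.0917 for SUSD4. The low ends for C1RL and SUSD4 are those without FT_1, as are the high ends for CD46 and CSMD2. In that fit CSMD2 was called higher (adjusted p 0.0320 in edgeR) and SUSD4 lower (adjusted p 1.07e-06 in edgeR).

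With 3 libraries per group and FT_1 apart from its group, the fold changes of C3 and CFB have wide intervals. Depth limits CFI, C6, C5AR2, CFD and CSMD3, which rest on few reads.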
